A study of Mus musculus with 16 samples.

Results

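The genes described here encode the receptors for glutamate, GABA and glycine, the main fast transmitters of the retina. They were taken by name: every protein-coding mouse gene whose symbol is Gria, Grik, Grin, Grid, Grm, Gabra, Gabrb, Gabrg, Gabrr, Gabbr or Glra with a number, together with Glrb, Gabrd and Gabre. The rule found 50 genes among the 36528 gene identifiers in the files, and all 50 were listed in every library. By family they were 4 AMPA, 2 delta, 5 kainate, 7 NMDA and 8 metabotropic glutamate receptor genes, 14 GABAA, 3 GABA rho and 2 GABAB receptor genes, and 5 glycine receptor genes.

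Photoreceptors and bipolar cells release glutamate. AMPA, kainate and NMDA receptors are ion channels that glutamate opens, while metabotropic receptors act through G proteins, and the product of Grm6 turns the fall of glutamate in light into the depolarisation of ON bipolar cells. Horizontal and amacrine cells release GABA and glycine, which open chloride channels of the GABAA, GABA rho and glycine receptor families or act through the G protein-coupled GABAB receptor. Retinal ganglion cells, whose axons form the optic nerve, carry several of these receptor classes.

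RNA was sequenced from whole mouse retina 3 days after the optic nerve was crushed, an injury to the axons of ganglion cells. The mice received either the vehicle (MCT) or GNE-3511, an inhibitor of DLK (dual leucine zipper kinase), at 75 mg/kg, 60 and 68 h after the injury. The 4 groups were vehicle-treated uncrushed retina (3 libraries), vehicle-treated crushed retina (3), inhibitor-treated uncrushed retina (5) and inhibitor-treated crushed retina (5). The labels state 5 mice per treatment, give no strain, age or genotype, and do not say which retinas came from one animal or whether an uncrushed retina was the fellow eye of a crushed one, so the p-values measure the spread between these libraries. Uncrushed retinas of the inhibitor group had been exposed to the drug as well.

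Libraries held 22.35 to 44.75 M counted reads, and the 50 receptor genes took 0.1996% to 0.2594% of them. The lowest shares were in uncrushed vehicle replicate 1 (0.1996%) and crushed vehicle replicate 3 (0.2033%), which were also the 2 shallowest libraries. The other 14 libraries held 0.2236% to 0.2594%, so results that rest on these 2 vehicle libraries are also given without them. Cell markers were read from the mean of the crush effects in the 2 treatments. There 3.23% of all tested genes were called lower and 5.22% higher. Of 16 ganglion cell markers, 13 were lower after crush (median log2 change -0.86), and all 11 microglia markers were higher. Of 10 lens markers 9 were lower (3 uncrushed libraries were rich in lens RNA). None of 12 amacrine and 1 of 11 bipolar markers passed the test. Of 6 horizontal cell markers 2 were lower, and of 9 Müller glia markers 2 were higher and 2 lower. Of 9 rod markers 1 was higher and 1 lower, and of 9 cone markers 1 was higher. The summed ganglion marker level was 1300 to 1850 CPM (counts scaled to library size) in uncrushed and 829 to 1180 in crushed vehicle retina, and 1650 to 2210 and 1100 to 1340 with the inhibitor, with no marker at 0. In whole-retina RNA, fewer cells of a type and less RNA per cell cannot be told apart.

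The retina held RNA of nearly every receptor gene. Levels are compared between genes as the authors' nRPKM, RPKM, which scales reads by gene length and library size, adjusted by a size factor, over the 8 uncrushed libraries. By mean level, 9 genes were at 20 nRPKM or above, 6 lay between 10 and 20, 26 between 1 and 10, and 9 under 1. A read was counted in every library for 49 of the 50 genes. The exception was Gabra6, a GABAA alpha subunit gene, with 0 to 2 reads per library, and it was not tested.

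The order began with genes of inhibition. Gabbr1, the GABA-binding subunit of the GABAB receptor, was highest at 42.8 ± 3.71 nRPKM (SD, n = 8). Gabrr1, the leading subunit of the rho receptors on bipolar cell terminals, followed at 34.1 ± 4.17. The highest glutamate receptor genes were Grm6 at 26.7 ± 3.36 and Grin1, the subunit that every NMDA receptor contains, at 26.4 ± 4.45. Glrb, the subunit that anchors glycine receptors at synapses, was at 22.9 ± 3.15. Over the whole order, 47 of the 49 neighbouring pairs overlapped in range. Only Grik5 over Grik1 and Gabre over Gabra6 had separate ranges.

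**Figure D1:**
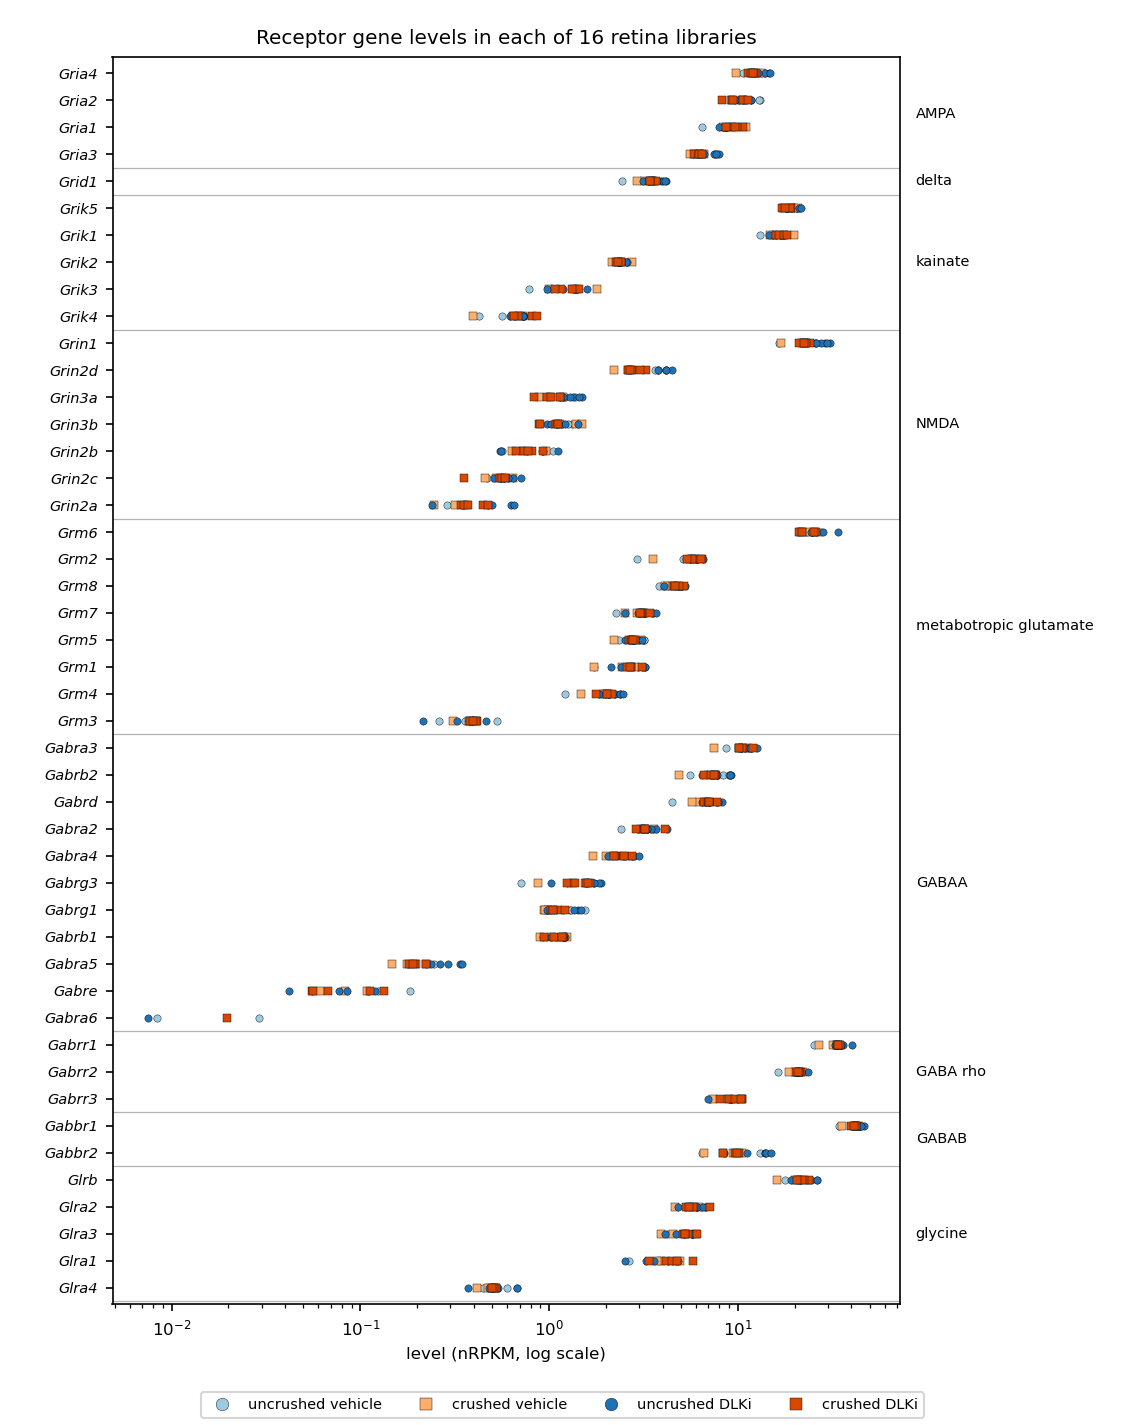
Level of 46 receptor genes (nRPKM, log axis) in the 16 libraries, grouped by family, with circles for uncrushed and squares for crushed retina. Values of 0, which occur for Gabra6 only, cannot be drawn on the log axis. Within a gene the 4 groups lie close together, while genes of one family span a wide range of levels, from 0.451 nRPKM for Grin2a to 26.4 for Grin1 as means of the uncrushed libraries among NMDA genes.

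Single subunits led some families. In the uncrushed libraries Grin1 held 68.6% to 80.3% of the summed nRPKM of the NMDA genes, and Grm6 held 50.2% to 64.6% of that of the metabotropic genes. Among the glycine alpha genes no single one led: Glra2 held 35.3% to 41.8%, Glra3 31.5% to 34.8% and Glra1 21.1% to 28.2%. The AMPA genes were also divided, with Gria4 at 29.7% to 35.7%.

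Crush was followed by lower RNA of a few receptor genes and by no called increase. The crush effect was tested in each treatment and as the mean of both, with edgeR's quasi-likelihood test and Benjamini-Hochberg adjustment over 19391 genes, and a gene was called at an adjusted p of at most 0.05. With vehicle 2 of 49 receptor genes were called, both lower (4.08%, beside 2.63% of all tested genes called in either direction, 0.861% called lower and 1.77% higher). With the inhibitor 3 of 49 were called, all lower (6.12%, beside 5.33% in either direction, 2.04% lower and 3.29% higher). In the mean of both 4 of 49 were called, again all lower (8.16%, beside 8.45% in either direction, 3.23% lower and 5.22% higher). The called share of the receptor genes in either direction was thus near that of all genes in the inhibitor and mean comparisons. With vehicle the somewhat higher share rested on only 2 genes, too few to set it apart from that of all genes. The 4 genes were Grin2d and Grin3a of the NMDA family and Gabrg1 and Gabra5 of the GABAA family.

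Over all 49 tested receptor genes, the called ones included, changes were mostly small and more often negative. The mean crush effect was below 0 for 37 of 49 receptor genes and for 51.1% of all genes. Its median was -0.08 on the log2 scale for the receptor genes and 0.00 for all genes. Of the 45 genes not called, 41 had a 95% interval of the mean crush effect that lay wholly within 0.5 log2 units of 0. With vehicle the count of negative receptor genes was 34, and it depended on single libraries. It was 45 without uncrushed vehicle replicate 1 and 42 without crushed vehicle replicate 1, but 24 without uncrushed vehicle replicate 2, 28 without uncrushed vehicle replicate 3 and 23 without crushed vehicle replicate 3. Without the 2 shallowest libraries it was 37, and without the 3 libraries rich in lens RNA it was 25.

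**Figure D2:**
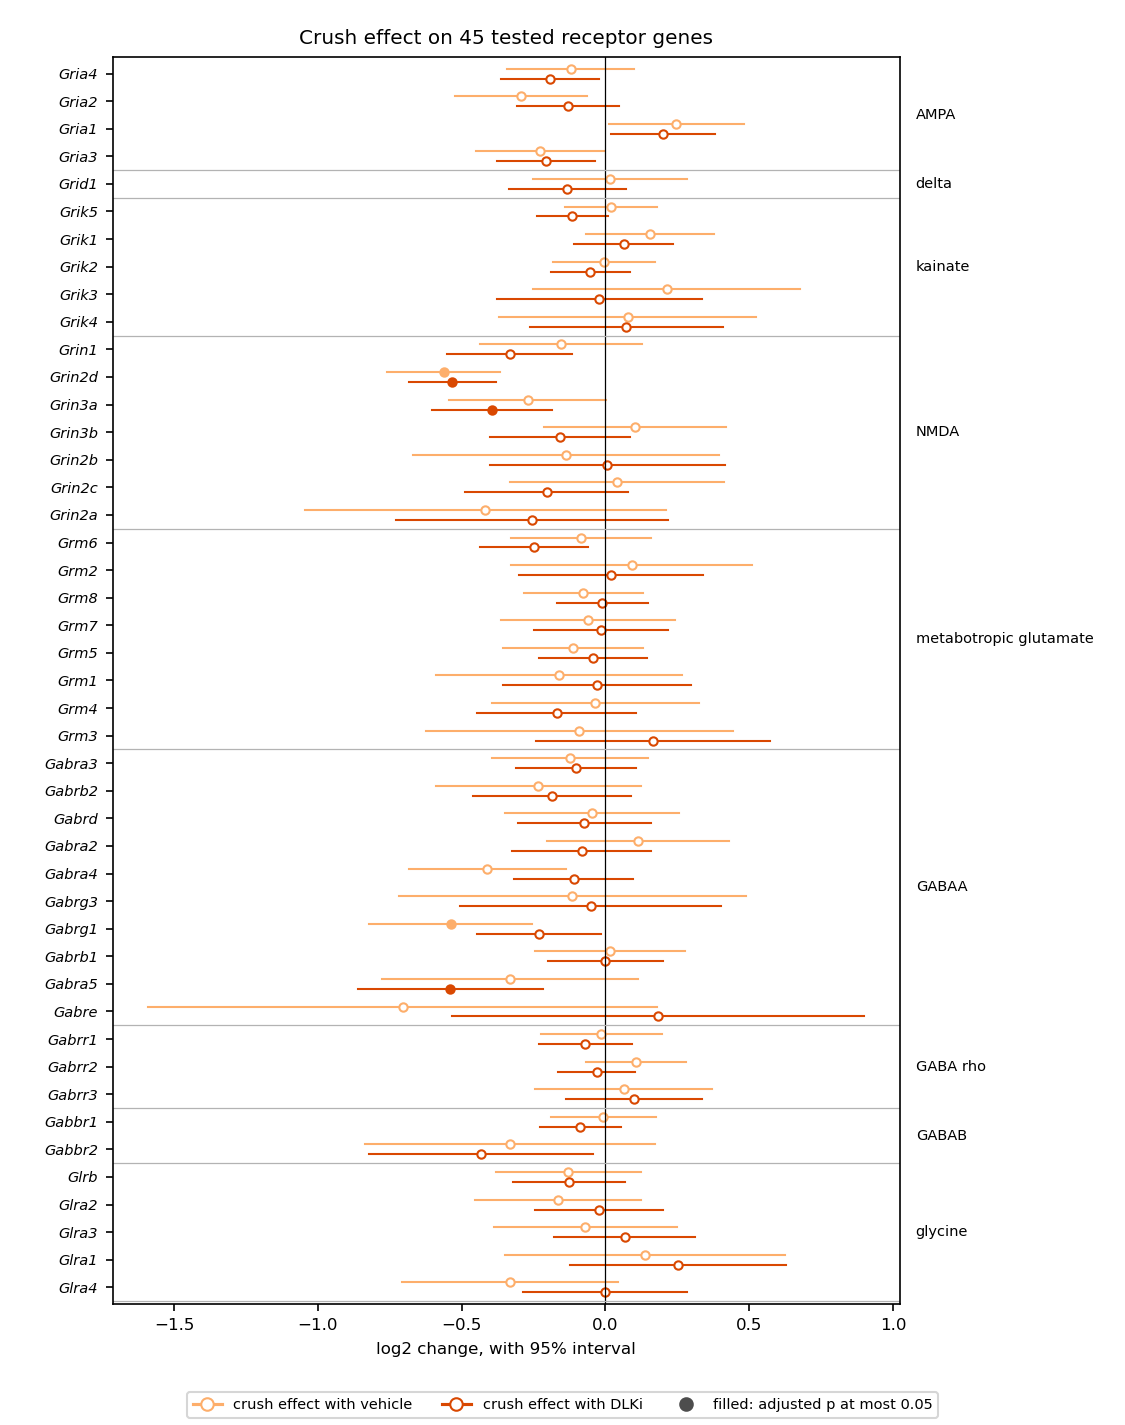
Log2 change after crush for 45 tested receptor genes, with vehicle and with the DLK inhibitor, as points with 95% intervals computed from edgeR's F statistic. Filled points have an edgeR adjusted p of at most 0.05. The filled points are Grin2d in both treatments, Gabrg1 with vehicle, and Grin3a and Gabra5 with the inhibitor, all left of 0.

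Grin2d encodes a glutamate-binding NMDA receptor subunit that gives slowly closing channels with little block by magnesium. Its mean crush effect was the largest of the 49 tested receptor genes. Its level was 3.76, 3.79 and 3.64 nRPKM in uncrushed and 2.22, 2.62 and 2.73 in crushed vehicle retina. With the inhibitor it was at 4.19, 4.18, 3.80, 4.48 and 4.15 in uncrushed and 2.61, 3.27, 2.75, 3.04 and 2.68 in crushed retina. Every crushed library lay below every uncrushed one, in both treatments and across them. Grin2d was the only receptor gene whose 8 crushed and 8 uncrushed libraries did not overlap, a separation that 2.48% of all tested genes showed in either direction, 0.639% as lower and 1.84% as higher after crush.

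The log2 change of Grin2d was -0.56 ± 0.09 (SE, edgeR adjusted p = 0.00191) with vehicle and -0.53 ± 0.07 (edgeR adjusted p = 0.000146) with the inhibitor. The difference between these effects was 0.03 ± 0.12 (edgeR adjusted p = 1). The mean of both was -0.55, with a 95% interval from -0.67 to -0.42 (edgeR adjusted p = 6.65e-06). The call held under every alternative setting tried, with adjusted p up to 0.0348 with vehicle, 0.00172 with the inhibitor and 0.000164 for the mean. Of its exon bases, 9.66% overlap the gene model Gm45441, and the library kit does not mark strand, so reads from such stretches cannot be told apart. The gene (identifier 14814) lies on the minus strand at chr7:45831883-45871194 of GRCm38.

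Grin2d was also the leading Grin2 gene. It took 63.7% to 74.0% of the summed nRPKM of Grin2a to Grin2d in uncrushed and 55.2% to 66.1% in crushed libraries, with medians of 68.1% and 61.9%, and the ranges overlapped. Its levels moved in the same direction as the ganglion cell markers given above, and the part of cell composition in its decline was not tested.

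Grin3a (identifier 242443, minus strand of chr4:49661611-49846023) encodes a glycine-binding subunit that lowers the calcium permeability of NMDA receptors. It was at 1.15, 1.21 and 1.37 nRPKM in uncrushed and 1.19, 1.01 and 0.886 in crushed vehicle retina. Under GNE-3511 the levels were 1.34, 1.49, 1.30, 1.45 and 1.19 in uncrushed and 0.835, 0.972, 1.03, 1.15 and 1.14 in crushed retina. The ranges overlapped with vehicle and did not overlap with the inhibitor, where the closest values were 1.15 and 1.19. How many of all genes had separate ranges within a single treatment was not counted. For this gene and those below, such separations are descriptions only.

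The log2 change of Grin3a was -0.40 ± 0.10 (edgeR adjusted p = 0.0229) with the inhibitor, -0.27 ± 0.13 (edgeR adjusted p = 0.489) with vehicle and -0.33 ± 0.08 (edgeR adjusted p = 0.0131) in the mean. The call with the inhibitor was lost without uncrushed inhibitor replicate 2 (edgeR adjusted p = 0.0669) or 4 (0.0672) and without crushed inhibitor replicate 1 (0.0721) or 2 (0.0662). The call of the mean was lost without uncrushed vehicle replicate 3 (edgeR adjusted p = 0.0505).

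The other NMDA genes were not called. Grin1 was at 16.5, 25.6 and 25.9 nRPKM in uncrushed and 22.4, 21.8 and 16.9 in crushed vehicle retina. Inhibitor-treated retina held 29.1, 27.6, 30.7, 29.9 and 26.0 in uncrushed and 21.1, 22.9, 24.1, 23.1 and 22.4 in crushed retina. The inhibitor groups did not overlap, whereas in vehicle retina uncrushed replicate 1 lay below all 3 crushed libraries.

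The log2 change of Grin1 was -0.33 ± 0.10 (edgeR adjusted p = 0.075) with the inhibitor, -0.16 ± 0.13 (edgeR adjusted p = 0.866) with vehicle and -0.24 ± 0.08 (edgeR adjusted p = 0.093) in the mean. Without uncrushed vehicle replicate 1 the mean effect on Grin1 was -0.33 ± 0.06 (edgeR adjusted p = 0.00134), and without the 2 shallowest libraries it was -0.28 ± 0.05 (edgeR adjusted p = 0.00121). With the inhibitor alone Grin1 was called in 5 alternatives, at adjusted p of 0.0301 with DESeq2, 0.00188 when only the inhibitor groups were fitted with edgeR, and 0.00575, 0.0491 and 0.000575 without uncrushed vehicle replicate 1, crushed vehicle replicate 3 or both. The antisense gene Grin1os overlaps 13.47% of its exon bases. Grin2a, Grin2b and Grin2c were all at or under 1.12 nRPKM in every library, and Grin3b, with exons that overlap those of Tmem259 over 32.1% of their bases, was at 0.886 to 1.49. As a family the 7 NMDA genes had a median mean crush effect of -0.24.

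Gabrg1 (identifier 14405, minus strand of chr5:70751047-70842617) encodes a GABAA gamma subunit. It was at 1.30, 1.56 and 1.31 nRPKM in uncrushed and 0.983, 0.937 and 0.956 in crushed vehicle retina. With the inhibitor it was at 1.43, 1.36, 1.18, 1.47 and 0.980 in uncrushed and 1.11, 1.22, 1.03, 1.05 and 1.05 in crushed retina. The vehicle groups were apart, though groups of 3 libraries separate easily without any effect. The inhibitor groups overlapped, with uncrushed replicate 5 below all crushed libraries of that treatment.

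Gabrg1 fell by 0.54 ± 0.13 on the log2 scale with vehicle (edgeR adjusted p = 0.0387) and by 0.38 ± 0.08 in the mean (edgeR adjusted p = 0.00606). With the inhibitor its change was -0.23 ± 0.10 (edgeR adjusted p = 0.297), and the difference between the treatments was 0.31 ± 0.17 (edgeR adjusted p = 1). The mean call held in all 23 alternatives, with adjusted p up to 0.0235. The vehicle call was lost in 9 of 24 alternatives, with adjusted p up to 0.197, reached without uncrushed vehicle replicate 2. It was also lost without uncrushed vehicle replicate 3 (edgeR adjusted p = 0.0653), without crushed vehicle replicate 1 (0.0932), 2 (0.106) or 3 (0.0989) and without crushed inhibitor replicate 1 (0.0505). The other losses were with only the vehicle groups fitted, without the 2 shallowest libraries and without the 3 libraries rich in lens RNA.

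Gabra5 (identifier 110886, minus strand of chr7:57407669-57591016) encodes an alpha subunit of largely extrasynaptic GABAA receptors. It was scarce, with 18 to 67 reads per library. Its level was 0.179, 0.245 and 0.222 nRPKM in uncrushed and 0.147, 0.176 and 0.198 in crushed vehicle retina. Under GNE-3511 the levels were 0.339, 0.344, 0.265, 0.290 and 0.238 in uncrushed and 0.181, 0.196, 0.223, 0.190 and 0.224 in crushed retina. The inhibitor groups were apart and the vehicle groups overlapped.

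The log2 change of Gabra5 was -0.54 ± 0.15 (edgeR adjusted p = 0.0489) with the inhibitor, -0.33 ± 0.21 (edgeR adjusted p = 0.733) with vehicle and -0.44 ± 0.13 (edgeR adjusted p = 0.0468) in the mean. Both calls stood at the threshold: the first was lost in 17 of 24 alternatives and the second in 16 of 23. DESeq2 gave adjusted p of 0.0831 and 0.0952 for the same comparisons.

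**Figure D3:**
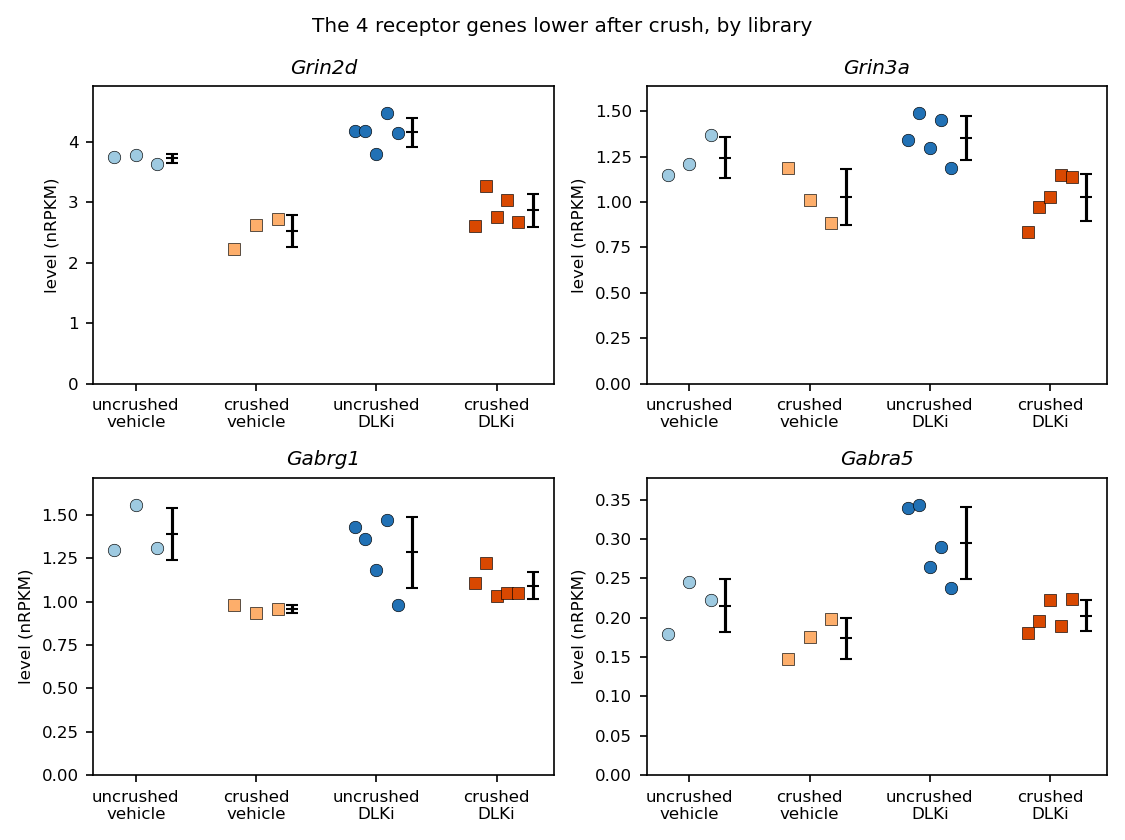
Level (nRPKM, linear axis from 0) of Grin2d, Grin3a, Gabrg1 and Gabra5 in each library, with the mean and SD of each group as a bar. For Grin2d all 8 crushed libraries (2.22 to 3.27) lie below all 8 uncrushed ones (3.64 to 4.48), while the other 3 genes overlap in 1 of the treatments.

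The start region of Gabrg1 is shown as an example of a gene called lower after crush. It is the 250 bases before the RefSeq start, from RefSeq's table for GRCm38.p6, at chr5:70842618-70842867, written 5′ to 3′ on the minus strand. A CCAAT box (CCAAT or its reverse complement ATTGG) is in capitals, and the window overlaps no annotated gene.
Gabrg1: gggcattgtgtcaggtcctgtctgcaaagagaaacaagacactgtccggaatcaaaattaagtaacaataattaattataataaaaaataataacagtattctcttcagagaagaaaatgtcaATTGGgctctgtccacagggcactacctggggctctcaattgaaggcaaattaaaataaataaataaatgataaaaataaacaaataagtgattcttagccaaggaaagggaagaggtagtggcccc
The window held 1 CCAAT box and none of the other 4 motifs searched on both strands, the AP-1 site TGANTCA, the CRE TGACGTCA, the GC box GGGCGG and the TATA box TATAAA. Of 32851 RefSeq promoter windows of this length, 33.8% held a CCAAT box. The 34 receptor genes with a window there had 41 windows, and 15 of these genes held the box in any of them. That count is per gene, so it cannot be set directly against the share of windows. The GC content was 35.6%, beside a median of 52.4% for all windows.

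The remaining GABAA genes were not called. Gabra4, an alpha subunit gene, came nearest, with a mean crush effect of -0.26 ± 0.08 (edgeR adjusted p = 0.0583). It was called in 6 alternatives, among them DESeq2 (adjusted p = 0.0229) and a filter at a mean of 1 CPM (edgeR adjusted p = 0.0494). It was at 2.46, 2.74 and 2.67 nRPKM in uncrushed and 2.20, 2.00 and 1.72 in crushed vehicle retina. These small groups did not overlap, and the share of all genes doing so was not counted. With the inhibitor the ranges, 2.06 to 2.99 and 2.21 to 2.75, overlapped. The least abundant tested gene, Gabre, had 5 to 21 reads per library and a mean crush effect of -0.26 ± 0.27, with a 95% interval from -0.83 to 0.31. The median of the 13 tested GABAA genes was -0.11.

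The AMPA genes, which carry most fast excitation onto ganglion and amacrine cells, did not move together. Gria1 was the receptor gene with the largest positive mean crush effect, 0.22 ± 0.07 (edgeR adjusted p = 0.0619). The effects on Gria2, the subunit that makes edited AMPA channels impermeable to calcium, and on Gria3 were -0.21 ± 0.07 (edgeR adjusted p = 0.0706) and -0.22 ± 0.07 (edgeR adjusted p = 0.0517). None of the 4 passed the test, though several stood near the threshold. DESeq2 called Gria1 (adjusted p = 0.0354), Gria2 (0.0387) and Gria3 (0.0225). Over all alternatives Gria3 passed in 9, Gria1 in 5, Gria2 in 3 and Gria4 in 1. Without the 2 shallowest libraries Gria1 (edgeR adjusted p = 0.0481) and Gria3 (edgeR adjusted p = 0.0123) passed, at 0.20 and -0.25.

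Gria1 was at 6.43, 8.80 and 8.72 nRPKM in uncrushed and 11.1, 8.96 and 8.40 in crushed vehicle retina. Inhibitor-treated retina held 8.32, 8.69, 8.59, 8.47 and 7.97 in uncrushed and 9.30, 10.7, 9.89, 9.69 and 8.66 in crushed retina. Crushed libraries were mostly higher, but both treatments overlapped. As a share of the summed AMPA nRPKM, Gria1 took 17.8%, 20.3% and 21.3% in uncrushed and 26.6%, 25.0% and 24.3% in crushed vehicle retina.

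With the inhibitor the Gria1 share was 20.4%, 20.8%, 23.0%, 20.4% and 20.6% in uncrushed and 26.7%, 27.5%, 26.2%, 25.2% and 22.5% in crushed retina. Crushed libraries were higher than uncrushed ones throughout, except that crushed inhibitor replicate 5 lay below uncrushed inhibitor replicate 3. The medians over treatments were 20.5% and 25.7%. This is a description without a test, chosen after the values were seen.

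**Figure D4:**
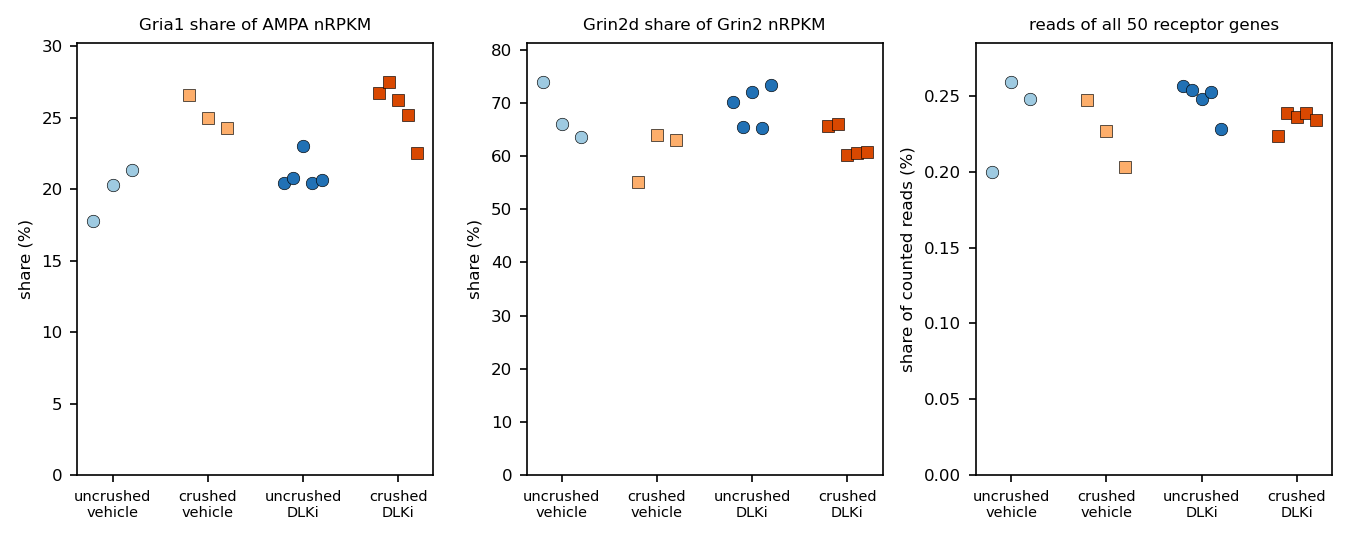
The 3 values per library, each on an axis from 0: the share of Gria1 in the summed AMPA nRPKM, the share of Grin2d in the summed Grin2 nRPKM, and the percent of counted reads from all 50 receptor genes. Gria1 shares run from 17.8% to 23.0% in uncrushed and 22.5% to 27.5% in crushed libraries, Grin2d shares overlap more, and the 2 lowest receptor read shares, 0.1996% and 0.2033%, are 2 vehicle libraries.

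Gria4, the most abundant AMPA gene, was at 10.7, 14.0 and 13.3 nRPKM in uncrushed and 13.3, 11.9 and 9.83 in crushed vehicle retina. With the inhibitor it was at 14.6, 13.9, 12.8, 14.8 and 12.4 in uncrushed and 11.4, 12.5, 12.2, 11.8 and 12.1 in crushed retina. Both treatments overlapped, and the mean crush effect was -0.16 ± 0.07 (edgeR adjusted p = 0.206).

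No kainate receptor gene was called. Grik5, a subunit that raises glutamate affinity, was at 18.1, 20.5 and 20.6 nRPKM in uncrushed and 19.9, 19.2 and 20.9 in crushed vehicle retina. Under GNE-3511 the levels were 18.4, 19.2, 21.0, 18.1 and 21.6 in uncrushed and 17.4, 17.2, 19.1, 19.0 and 17.9 in crushed retina. The groups overlapped, and the mean crush effect was -0.05 ± 0.05, with a 95% interval from -0.15 to 0.05. Grik1, a principal kainate subunit used by OFF bipolar cells, had 0.11 ± 0.07, and the 5 kainate genes had a median of 0.08. Grid1, a delta receptor gene whose product binds cerebellin partners, had -0.06 ± 0.08.

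The metabotropic genes gave no call. Grm6 was at 25.0, 27.5 and 23.3 nRPKM in uncrushed and 23.7, 22.0 and 25.8 in crushed vehicle retina. Inhibitor-treated retina held 24.9, 26.1, 28.4, 24.6 and 34.0 in uncrushed and 21.3, 21.1, 22.0, 25.9 and 25.4 in crushed retina. The groups overlapped, and uncrushed inhibitor replicate 5, one of 3 libraries rich in lens RNA, stood highest. The mean crush effect on Grm6 was -0.17 ± 0.07 (edgeR adjusted p = 0.227). The other 7 genes of the family had mean crush effects from -0.10 (Grm4) to 0.06 (Grm2).

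None of the GABAB, rho and glycine receptor genes was called. Gabbr1 was at 34.6, 42.7 and 44.4 nRPKM in uncrushed and 43.8, 41.7 and 35.7 in crushed vehicle retina. With the inhibitor it was at 44.2, 46.8, 43.8, 45.0 and 41.1 in uncrushed and 39.8, 42.1, 41.9, 42.3 and 41.4 in crushed retina. The groups overlapped, and the mean crush effect was -0.05 ± 0.06, with a 95% interval from -0.16 to 0.07.

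Gabbr2, the partner that couples the GABAB receptor to G proteins, was at 6.43, 13.2 and 13.9 nRPKM in uncrushed and 10.6, 9.49 and 6.66 in crushed vehicle retina. Under GNE-3511 the levels were 14.0, 14.1, 11.2, 15 and 8.41 in uncrushed and 8.36, 9.64, 10.2, 9.94 and 8.37 in crushed retina. Uncrushed vehicle replicate 1 was the lowest library of all and the ranges overlapped. Its mean crush effect was -0.38 ± 0.15 (edgeR adjusted p = 0.168), and -0.52 ± 0.12 (edgeR adjusted p = 0.0092) without that library. Without both shallow libraries the mean effect on Gabbr2 was -0.43 ± 0.11 (edgeR adjusted p = 0.0249).

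Gabrr1 was at 25.5, 34.0 and 33.5 nRPKM in uncrushed and 33.2, 32.0 and 26.8 in crushed vehicle retina. Inhibitor-treated retina held 35.4, 36.0, 40.3, 35.4 and 32.6 in uncrushed and 33.4, 34.2, 34.4, 35.0 and 34.0 in crushed retina. The groups overlapped, and the mean crush effect was -0.04 ± 0.06 (edgeR adjusted p = 0.833). Gabrr2 and Gabrr3 had 0.04 ± 0.05 and 0.08 ± 0.09. The glycine receptor genes ranged from -0.17 (Glra4) to 0.20 (Glra1).

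The DLK inhibitor gave no called change of any receptor gene. With edgeR 0 of 49 were called in crushed retina (beside 0.505% of all genes) and 0 of 49 in uncrushed retina (beside 0.629%), and DESeq2 likewise called 0 in each. At an unadjusted p under 0.05 the counts were 4 and 7 of 49, beside 13.7% and 17.3% of all genes. The smallest adjusted p were those of Grin3b in crushed retina, -0.40 ± 0.13 (edgeR adjusted p = 0.203), and of Grin1 in uncrushed retina, 0.34 ± 0.12 (edgeR adjusted p = 0.183). The 95% interval lay within 1 log2 unit of 0 for 49 genes in crushed and 48 in uncrushed retina, and within 0.5 for 33 and 35.

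Values under the inhibitor were more often higher than with vehicle, by a small amount. The log2 change was positive for 41 of 49 receptor genes in crushed and 36 of 49 in uncrushed retina, with a median of 0.11 in each, where the medians of all genes were 0.01. Without the 2 shallowest vehicle libraries the counts were 28 and 22, and the medians 0.01 and -0.01. In crushed retina the count was also 28 without crushed vehicle replicate 3 alone, and the median was 0.21 without crushed vehicle replicate 1. In uncrushed retina the count was 22 without uncrushed vehicle replicate 1 and 43 without uncrushed vehicle replicate 2, where the median was 0.16. It was 45 there without the 3 libraries rich in lens RNA, with a median of 0.23, so the size of this lean varied with the libraries kept.

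The 4 genes called after crush were not called for the drug. Grin2d had 0.19 ± 0.08 (edgeR adjusted p = 0.34) in crushed and 0.15 ± 0.08 (edgeR adjusted p = 0.349) in uncrushed retina. Gabra5 had 0.44 ± 0.18 (edgeR adjusted p = 0.231) in uncrushed retina, and Grin3a had 0.12 there (edgeR adjusted p = 0.615). In crushed retina 3 of the 16 ganglion cell markers were called higher with the inhibitor, beside 0.505% of all genes in either direction. They were Pou4f1 (1.39), Pou4f2 (1.37) and Isl2 (1.37), and the remaining markers were not called. In uncrushed retina 0 of the 16 were called, beside 0.629% of all genes. The median change of the 16 markers was 0.29 in crushed and 0.30 in uncrushed retina. Their crush effects differed between treatments by a median of -0.009, and the difference was called for 0 of them.

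**Figure D5:**
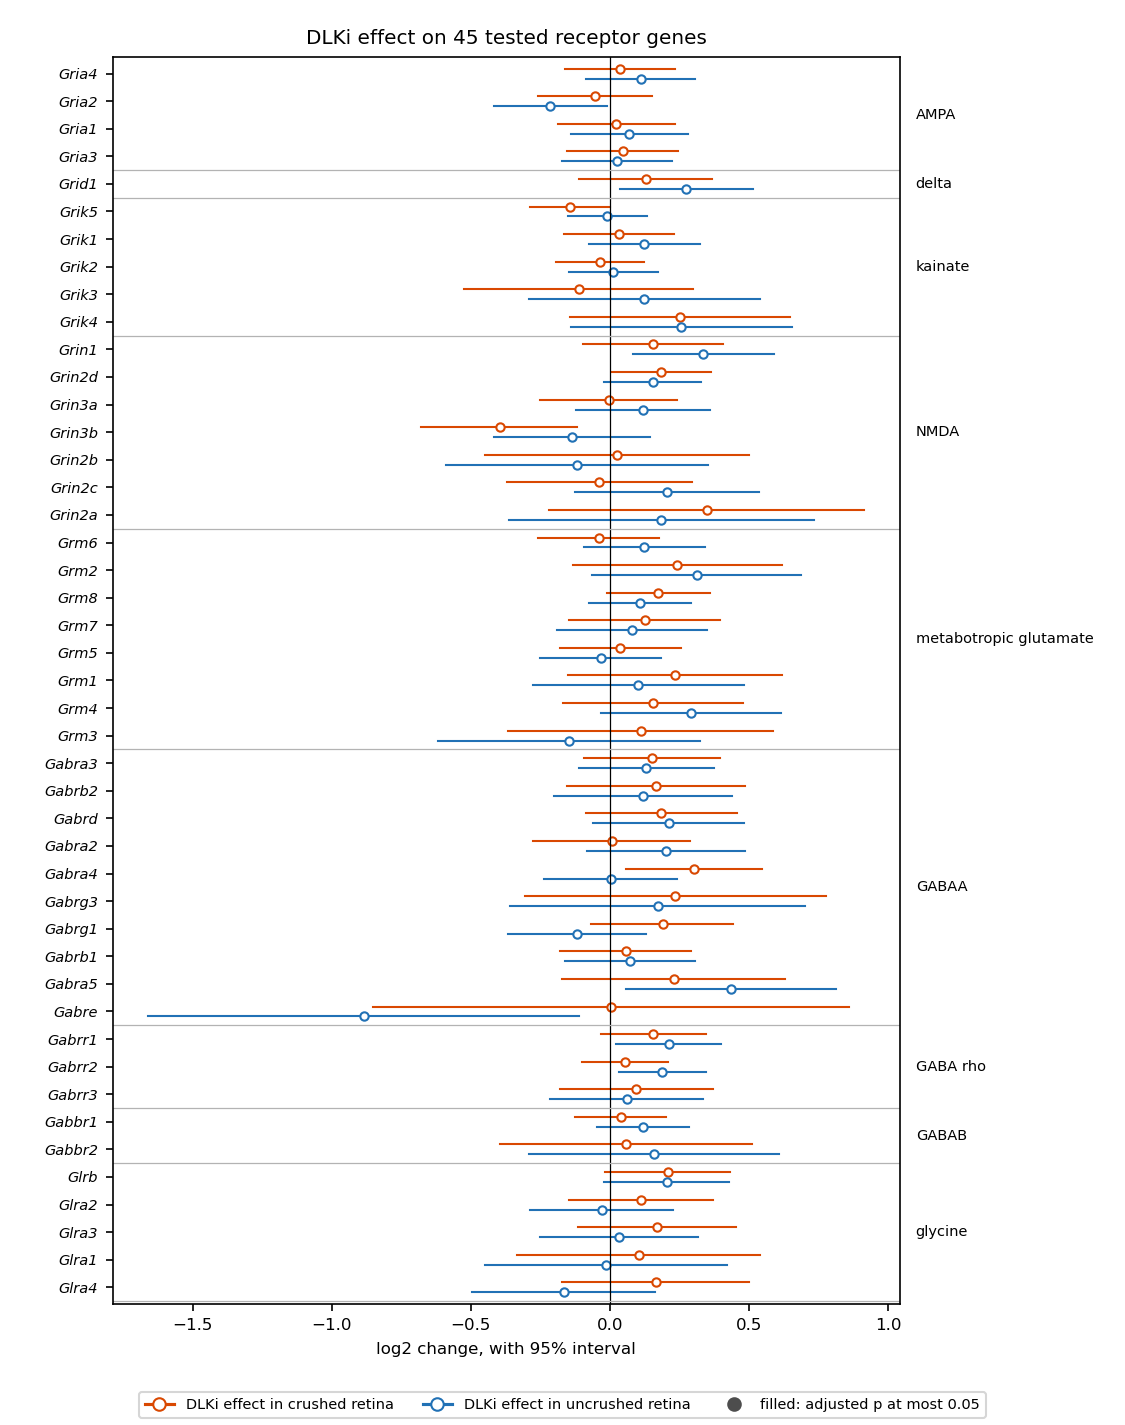
Log2 change with the DLK inhibitor against vehicle for 45 tested receptor genes, in crushed and in uncrushed retina. Points have 95% intervals computed from edgeR's F statistic. No point is filled, since no adjusted p was at or below 0.05, and 37 of the points for crushed and 34 for uncrushed retina lie right of 0.

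The crush effect was also compared between treatments. The difference of the crush effects, inhibitor minus vehicle, was called for 0 of 49 receptor genes by edgeR and by DESeq2. Of all genes edgeR called 0.0103%. At an unadjusted edgeR p under 0.05 the count was 0 of 49, beside 1.54% of all genes. The interval of the difference lay within 0.5 log2 units of 0 for 26 genes and within 1 for 48. The difference was negative for 24 of the 49 genes (median 0.002), a count that varied with the libraries kept. Without the 3 libraries rich in lens RNA it was negative for 44 (median -0.145). Without uncrushed vehicle replicate 1 it was negative for 11 (median 0.14). Crush comparisons and drug comparisons share their libraries, so their values are given side by side and are not independent.

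Partner proteins of the receptors were read from lists in the same comparison of the mean crush effect. Of all tested genes 8.45% were called in it, 3.23% lower and 5.22% higher. Calls of partner genes were not checked under the alternative settings, as those of the receptor genes were. Of 16 AMPA and kainate auxiliary genes 3 fell and none rose: Cnih2, a cornichon that slows AMPA channels (-0.32 ± 0.07, edgeR adjusted p = 0.00355), Olfm1, an olfactomedin found in AMPA receptor complexes (-0.34 ± 0.07, 0.00571), and Cacng5, a transmembrane AMPA regulatory protein (-0.47 ± 0.11, 0.00714). Of 26 excitatory scaffold and trafficking genes 4 fell and none rose. Dlgap3 (-0.53 ± 0.07, edgeR adjusted p = 2.95e-05) and Shank3 (-0.41 ± 0.06, edgeR adjusted p = 0.000116), neighbouring layers of the postsynaptic scaffold, were also called in each treatment alone. The kinase gene Camk2a (-0.32 ± 0.08, edgeR adjusted p = 0.0153) and the pentraxin gene Nptx1 (-0.36 ± 0.10, edgeR adjusted p = 0.0352) were the other 2.

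On the inhibitory side, 1 of 18 scaffold and GABAB-associated genes was called, beside the same 8.45% of all genes: Gphn, gephyrin, which holds glycine and GABAA receptors at synapses, fell by 0.16 ± 0.05 on the log2 scale (edgeR adjusted p = 0.0341). Of 23 genes of transmitter synthesis and transport only Glul, the glutamine synthetase of Müller glia, was called, at -0.27 ± 0.06 (edgeR adjusted p = 0.00771). Of 15 genes of the Grm6 cascade only Gnb3 was called, higher at 0.49 ± 0.05 (edgeR adjusted p = 2.94e-06), and Gnb3 also serves cones. The list medians were -0.06, -0.03, -0.04, 0.02 and -0.03 in this order, beside 0.00 for all genes. No gene of these 5 lists was called for the drug in crushed or uncrushed retina.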

How the data were processed

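Poly(A) RNA of mouse retina was made into TruSeq v2 libraries and sequenced as single reads of 50 bases, per the labels' protocols. Reads were aligned with GSNAP to GRCm38, per the submitters' processing notes; its version and the gene annotation are not stated there. Per the file headers, each deposited table gives the count of reads uniquely aligned to each gene model and a size-factor-adjusted RPKM (nRPKM) made by the authors.

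Gene identifiers were matched to RefSeq symbols; 31049 of 36528 had one. Groups came from the labels, with replicates numbered in accession order. Counts were tested with edgeR 4.0.16 (TMM scaling, filterByExpr, quasi-likelihood, 1 mean per group over all 16 libraries, 12 residual degrees of freedom, two-sided) and, as an alternative, DESeq2 1.42.0, on R 4.3.3; the code was tested on simulated counts. The mean ± SD are of nRPKM and ± on log2 changes is the SE. edgeR's test gives no SE, so it was computed as the absolute log2 change divided by the square root of the F statistic. The 95% intervals were made from this SE and a t quantile. Families and motifs were described without tests. Exon overlaps come from GENCODE M21. The receptor genes and all lists were chosen with earlier results of these data known. Values in every library were given for called receptor genes, the highest gene of each class, Grm6 and Gabrr1; Gabra4, Gria1 and Gabbr2 were added after their values were seen. A few of the receptor genes count in the totals and medians but are not reported singly here. Alternatives were RLE or total-count scaling in place of TMM, DESeq2, no filter, and a filter at a mean of at least 1 CPM. The others were fitting only the groups compared, and leaving out single libraries, the 2 shallowest vehicle libraries or the 3 libraries richest in lens RNA.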

Additional observations from a re-analysis of the deposited data

How the results depend on the processing

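No paired analysis was run, because the labels give no replicate numbers and tie no retina to an animal. Library numbers in the titles alternate between crushed and uncrushed retina, but no label says that neighbours share an animal. The shallowest libraries, uncrushed vehicle replicate 1 and crushed vehicle replicate 3, carry neighbouring numbers. Grin2d kept its direction and its call in all alternatives tried for each crush comparison, and Grin3a, Gabrg1 and Gabra5 kept their direction in all alternatives of the comparisons that called them; signs of receptor genes not called did change, as the counts of negative genes above show. With vehicle, 2 receptor genes and 510 genes in all were called; fitting only the groups compared gave 1 and 281, leaving out the 3 lens-rich libraries gave 1 and 263, leaving out the 2 shallowest libraries gave 1 receptor gene, and leaving out single libraries gave 1 to 2 and 276 to 506. With the inhibitor, 3 receptor genes and 1034 genes were called; the receptor count was 6 without the 2 shallowest libraries and 1 to 4 when single libraries were left out, and the gene count was 620 without the lens-rich libraries. For the mean crush effect, 4 receptor genes became 7 with DESeq2, 8 without the 2 shallowest libraries and 3 to 8 without single libraries, the 8 being reached without uncrushed vehicle replicate 1.

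The inhibitor called 98 genes in crushed retina; the count was 418 with DESeq2, 45 with only the groups compared, 53 without the 2 shallowest libraries and 22 to 144 without single libraries. In uncrushed retina 122 genes became 625, 3, 11 and 17 to 205 in the same order, and 7 without the lens-rich libraries. The difference of crush effects called 2 genes, 5 with DESeq2, 1 without the 2 shallowest libraries, 0 without the lens-rich libraries and 1 to 2 without single libraries. No receptor gene was called for the drug or the difference in any of these. The causes of these changes were not tested. With 3 vehicle libraries in each group, the median SE of a receptor gene was 0.134 log2 units for the vehicle crush effect and 0.103 for that with the inhibitor, so the vehicle effect was the less precise.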
